A study of Mus musculus with 15 samples.

Results

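Protocadherins are cell-surface adhesion proteins of the cadherin superfamily that let neurons recognise one another. Genes were taken as protocadherins where their symbol starts with Pcdh, leaving out symbols with Rik or -ps, which gave 70 genes of the 35976 in the count table. They comprised 14 genes of the alpha cluster, 22 of the beta cluster, 22 of the gamma cluster and 12 genes that stand outside the clusters. Nuclear RNA was sequenced from the ventral tegmental area, the midbrain region that holds many of the brain's dopamine neurons, in male heterozygous DAT-Cre mice 8 to 12 weeks old. These mice express Cre recombinase where the dopamine transporter gene Slc6a3 is active, and all of them carried the Cre allele and received the virus AAV5-DIO-KASH-HA, which puts an HA tag on the nuclear envelope of cells with Cre. Nuclei with the tag were sorted as dopaminergic (DA) and those without it as non-dopaminergic (nDA), so that a dopamine neuron the virus did not reach falls into the nDA gate.

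The 15 libraries formed 4 groups, each library made from pooled tissue of 2 mice. Food-trained mice, which had worked for food rewards over 7 days and were collected after the last such session, gave DA nuclei (n = 4) and nDA nuclei (n = 4). The maintenance group gave DA nuclei (n = 3) after daily sessions of 1 hour with intravenous cocaine at 0.3 mg/kg per infusion for 5 days and then 1.0 mg/kg per infusion for 10 days. The abstinence group, labelled craving, had the same cocaine schedule and then 21 days in the home cage without cocaine (n = 4). Cocaine mice were also collected later in the protocol than food-trained mice and had undergone catheter surgery, and these differences and cocaine itself cannot be told apart in the comparisons between stages. The labels do not state that libraries of a group came from separate experiments, so the p-values measure only the spread between these samples.

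The clustered genes lie in a row on chromosome 18 (RefSeq, GRCm38.p6), the alpha genes between 36930285 and 37188897, the beta genes between 37264998 and 37521419 and the gamma genes between 37661775 and 37841873. Each alpha and gamma gene has a variable first exon with its own promoter, which is spliced to constant exons shared by the cluster, whereas a beta gene is a single exon. A neuron switches on a small and largely random choice of these promoters through CTCF and cohesin, and the C-type genes at the end of the alpha and gamma clusters escape that lottery in many neurons. The clusters are known targets of repression by SETDB1, which methylates histone H3 at lysine 9. No chromatin mark was measured in these libraries. Protocadherins outside the clusters fall mainly into the delta-1 group (Pcdh1, Pcdh7, Pcdh9, Pcdh11x) and the delta-2 group (Pcdh8, Pcdh10, Pcdh17, Pcdh18, Pcdh19), and the delta-2 proteins act on the actin cytoskeleton through the WAVE complex. Because unspliced nuclear RNA of an upstream alpha or gamma gene runs through the variable exons downstream of it, and constant exons are shared, reads could be split among members of a cluster. Values of single alpha and gamma genes are therefore uncertain, and sums over each cluster are given beside them. A sum is not changed by how reads are divided within the cluster, but would be by reads counted for several genes or dropped, and which was done is not given in the sources used here.

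Total counts per library ranged from 25813697 to 59046618. The DA libraries detected 14841 to 19750 genes and the nDA libraries 22733 to 23886. Levels below are CPM, a gene's counts relative to the TMM-scaled total of its library. The sort label was checked with markers: the summed level of 14 dopamine neuron markers was 6831 to 12772 CPM in food-trained DA nuclei and 452 to 664 CPM in nDA. The nDA libraries, labelled as neurons, also held much glial RNA, with 11 oligodendrocyte markers summing to 9923 to 23536 CPM against 1761 to 2829 CPM in DA. Libraries also differed in how counts depended on the GC content of the transcript, as a slope of log2 CPM per percent GC. The 3 maintenance libraries (-0.0377 to -0.0224) and nDA replicate 2 (-0.0247) lay below the other libraries (-0.0166 to 0.0324).

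Per kilobase of transcript, over the mean of all 15 libraries, Pcdh9 was the most abundant protocadherin at 245 CPM per kb. Pcdh7 followed at 40.9 CPM per kb, and Pcdh17, the C-type alpha gene Pcdhac2, Pcdh11x and the C-type gamma gene Pcdhgc4 were at 27.2, 26.2, 25.9 and 25.8 CPM per kb. That order holds for the pooled mean only: Pcdhgc4 was at 31.7 CPM per kb in food-trained DA nuclei and 16.1 at maintenance, and Pcdhac2 at 29.5 in food-trained DA and 14.0 in nDA. The median was 5.75 CPM per kb for alpha, 2.33 for beta and 3.03 for gamma genes, against 19.4 for the delta-2 group. Pcdh12, a protocadherin of endothelial cells, was the least abundant of the 69 genes with a known transcript length at 0.0679 CPM per kb and was the only member that passed the filter on low counts in no comparison. The filter left 69 of the 70 genes between populations and 67 between stages, where Pcdhb1 and Pcdhgb8 were also not tested.

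The first comparison asked how DA and nDA nuclei of food-trained mice differ. All 5 delta-2 protocadherins had a higher mean in DA nuclei, 3 of them past the threshold, and the delta-1 gene Pcdh9 was lower. The alpha cluster stood at 535 ± 135 CPM in DA nuclei (SD, n = 4) and 269 ± 19.8 CPM in nDA (n = 4), with Pcdhac2 and Pcdha7 past the threshold. The gamma cluster was at 470 ± 137 CPM (n = 4) in DA and 521 ± 197 CPM (n = 4) in nDA. In all, 6 of 69 protocadherins passed an adjusted p of 0.05 in edgeR's quasi-likelihood test, 5 higher and 1 lower in DA nuclei. Over all genes tested 12.8% passed, 3.63% higher and 9.17% lower. At an unadjusted p under 0.05 there were 12 higher and 4 lower members, where 9.06% and 15.3% of all genes were. The median log2 fold change was 0.35 over the members and -0.21 over all genes tested. It was -0.19 (all genes -0.60) with the replicate number as a block and -0.33 (all genes -0.63) with voom, so that its sign rests on the model. In these bulk samples, fewer cells of a type and less RNA per cell cannot be told apart.

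**Figure D1:**
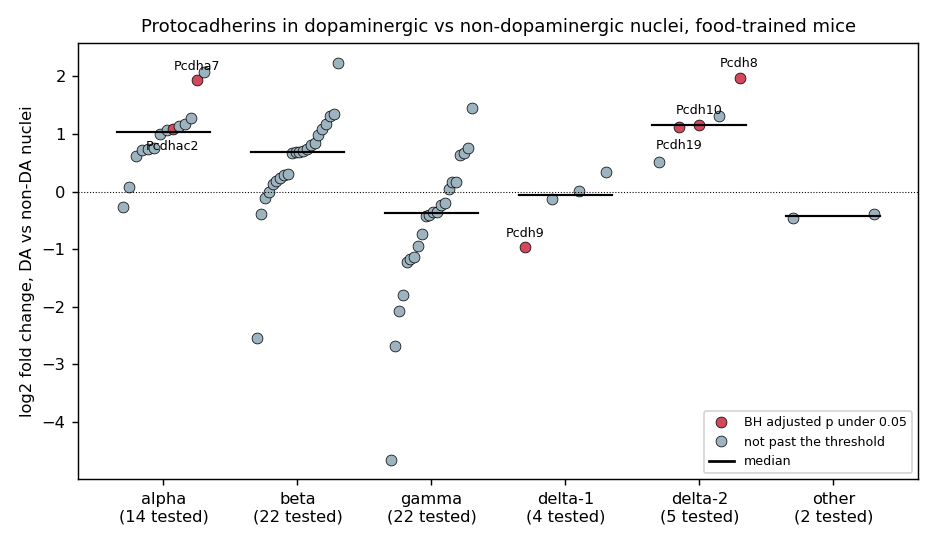
Log2 fold change of each tested protocadherin in DA against nDA nuclei of food-trained mice (y axis), by group of genes (x axis), with points in red past a Benjamini-Hochberg adjusted p of 0.05 and a bar at each group's median. The 5 delta-2 genes and 13 of 14 alpha genes lie above 0, and 15 of 22 gamma genes lie below it.

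Promoter sequences were at hand in RefSeq for 9 of the 70 members. Those of Pcdh10 and Pcdh8 are shown because both genes were higher in DA nuclei and their windows end at the start of the gene. Each runs 5′ to 3′ over the 250 bases before the start, in GRCm38.p6, with Pcdh10 at chr3:45378148-45378397 on the plus strand and Pcdh8 at chr14:79771313-79771562 on the minus strand. Capitals mark matches on either strand to CCCTC, the letters that CTCF is named after and not its binding motif, and to GGGCGG, the GC box. Adjoining matches run together.
Pcdh10: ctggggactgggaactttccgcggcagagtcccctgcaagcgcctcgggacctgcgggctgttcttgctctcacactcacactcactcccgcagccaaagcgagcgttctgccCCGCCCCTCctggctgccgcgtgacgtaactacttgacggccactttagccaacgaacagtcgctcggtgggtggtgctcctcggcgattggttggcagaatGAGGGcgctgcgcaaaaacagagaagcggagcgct
Pcdh8: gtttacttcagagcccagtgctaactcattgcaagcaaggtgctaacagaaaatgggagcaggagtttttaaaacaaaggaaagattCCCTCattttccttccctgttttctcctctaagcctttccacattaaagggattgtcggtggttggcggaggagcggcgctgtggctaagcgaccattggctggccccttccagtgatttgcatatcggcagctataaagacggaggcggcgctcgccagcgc
The Pcdh10 window held 2 CCCTC matches and 1 GGGCGG match, and the Pcdh8 window held 1 CCCTC match and no GGGCGG match. Of 32851 promoters of the same length, 60.5% held CCCTC and 32.7% held GGGCGG. The letters AAGGTCA, bound by Nr4a2 and its relatives, were in neither window and in 4.08% of all promoters. The windows held 22 CpG dinucleotides for Pcdh10 and 11 for Pcdh8, against a median of 6 over all promoters. A match is a run of letters and does not show that a factor binds there.

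Pcdh10, a delta-2 protein that directs axon growth and synapse elimination, stood at 245, 178, 252 and 208 CPM in the DA libraries and at 93.5, 100, 108 and 97.5 CPM in nDA. Every DA library was above every nDA library, with a log2 fold change of 1.16 ± 0.17 (SE; adjusted p 0.00670, edgeR). Pcdh19, an X-linked delta-2 gene whose loss causes an epilepsy in girls, stood at 155, 223, 185 and 203 CPM in DA and at 75.1, 100, 72.8 and 108 CPM in nDA. The groups again did not overlap, and the fit gave a log2 fold change of 1.12 ± 0.20 (SE; adjusted p 0.00681, edgeR).

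Pcdh8, also known as arcadlin and induced by neuronal activity, stood at 116, 98.1, 63.5 and 220 CPM in DA and at 31.1, 14.5, 28.7 and 53.8 CPM in nDA. It had the largest fitted change of the delta-2 group at a log2 fold change of 1.97 ± 0.47 (SE; adjusted p 0.0245, edgeR), and the widest spread among DA libraries. Its adjusted p was 0.0689 without nDA replicate 1 and 0.0725 without nDA replicate 3. The remaining delta-2 genes missed the threshold. Pcdh17, found at synapses of the basal ganglia, was at 276 to 345 CPM in DA and 191 to 254 CPM in nDA, without overlap, and its log2 fold change was 0.51 (edgeR adjusted p 0.0845). Pcdh18 was at 35.7 to 116 CPM against 19.9 to 40.5 CPM, with overlapping groups and a log2 fold change of 1.31 (edgeR adjusted p 0.0654). Summed over the 5 genes, the level was 925 ± 84.1 CPM in DA and 473 ± 54.5 CPM in nDA (n = 4 each), a ratio of 1.96.

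Pcdh9, a delta-1 gene, stood at 1137, 1325, 1363 and 1063 CPM in DA and at 2706, 2978, 2071 and 1896 CPM in nDA. Every DA library lay below every nDA library, and the fit gave a log2 fold change of -0.97 ± 0.23 (SE; adjusted p 0.0241, edgeR). The adjusted p was 0.106 without nDA replicate 1 and 0.0503 without nDA replicate 2. Summed glial markers were also lower in DA: astrocyte markers were at 797 to 983 CPM in DA and 1727 to 3255 CPM in nDA, and microglial markers at 559 to 1087 CPM and 1931 to 4219 CPM. Markers of other neurons overlapped between the populations. Glutamate neuron markers summed to 515 ± 235 CPM in DA and 474 ± 122 CPM in nDA, and GABA neuron markers to 776 ± 284 CPM and 1106 ± 345 CPM (n = 4 each). Of the oligodendrocyte markers 7 of 11 passed the threshold, all lower in DA, and their part in the level of Pcdh9 was not tested. The other delta-1 genes missed the threshold, with log2 fold changes of 0.35 for Pcdh7, 0.01 for Pcdh1 and -0.13 for Pcdh11x. Outside the delta groups, Pcdh15, part of the tip link of inner-ear hair cells, was at 57.6 to 141 CPM in DA and 110 to 159 CPM in nDA, and Pcdh20 at 0 to 86.9 CPM and 38.4 to 167 CPM, both with overlap.

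**Figure D2:**
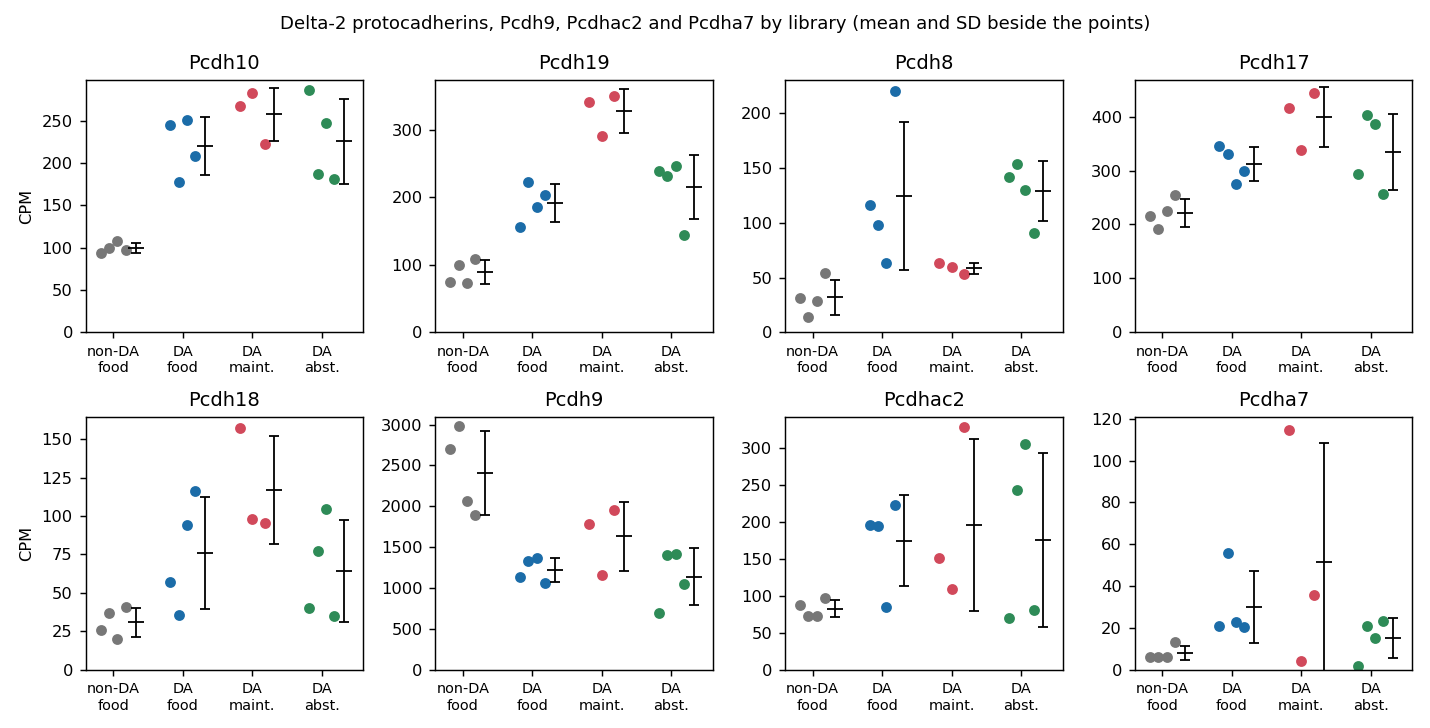
Level in CPM (y axis, from 0) of 8 protocadherins in each library, by group (x axis: nDA and DA after food training, DA at maintenance, DA after abstinence), with the mean and SD beside the points. Pcdh10, Pcdh19, Pcdh8, Pcdh17, Pcdha7 and Pcdh9 show no overlap between DA and nDA after food training, and Pcdh9 is the one of the 8 with a higher mean in nDA.

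Of the 14 alpha genes, 13 had a log2 fold change above 0, with a median of 1.03, where 41.7% of all genes tested were above 0. With the replicate block 12 were above 0 and the median was 0.72, and with voom these were 10 and 1.06. Pcdhac2, the most abundant alpha gene, which serotonin neurons need to space their axons, stood at 195, 194, 84.1 and 223 CPM in DA and at 87.0, 73.2, 72.4 and 96.4 CPM in nDA. DA replicate 3 lay within the nDA range and the other 3 lay above it, and the fit gave a log2 fold change of 1.09 ± 0.29 (SE; adjusted p 0.0393, edgeR). Pcdha7, an alternate alpha gene, stood at 20.7, 55.7, 23.0 and 20.6 CPM in DA and at 5.93, 6.31, 6.28 and 13.2 CPM in nDA. No library overlapped between the groups, and the fit gave a log2 fold change of 1.93 ± 0.49 (SE; adjusted p 0.0315, edgeR).

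Other alpha genes missed the threshold. Pcdha2 stood at 31.7 to 92.7 CPM in DA and 16.5 to 33.9 CPM in nDA (log2 fold change 1.29, edgeR adjusted p 0.0567). Pcdhac1, the other C-type alpha gene, stood at 7.63 to 40.5 CPM against 9.91 to 14.1 CPM (edgeR adjusted p 0.189). Pcdha9 stood at 52.2, 0, 26.6 and 48.4 CPM in DA and 15.0 to 22.7 CPM in nDA, so that 1 DA library had no count of it while the rest lay above nDA.

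Both alpha calls were fragile. With the replicate number as a block, the adjusted p was 0.0737 for Pcdhac2 and 0.134 for Pcdha7, and the count of protocadherins fell from 6 to 4 while that of all genes fell from 2534 to 775. Pcdhac2 passed with all 8 libraries and without DA replicate 3, and leaving out any other single library gave an adjusted p between 0.0695 and 0.106. Pcdha7 was at 0.0580 without DA replicate 2, its highest library, and between 0.0809 and 0.0973 without nDA replicate 1, 2 or 3. The sum of the alpha cluster was 1.99 times as high in DA as in nDA, and between 1.86 and 2.23 times when each library was left out in turn. All 4 DA libraries (338 to 640 CPM) lay above all nDA libraries (249 to 287 CPM).

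No beta gene passed the threshold in edgeR with all 8 libraries, and 19 of 22 had a log2 fold change above 0, with a median of 0.69. With the replicate block 12 of 22 beta genes were above 0 and the median was 0.17, and with voom these were 12 and 0.15. Leaving out DA replicate 3 let Pcdhb7 and Pcdhb20 pass as higher. Pcdhb1 rested on 1 library, at 9.10, 0, 0 and 0 CPM in DA and 0.261 to 0.729 CPM in nDA, so its fitted log2 fold change of 2.24 turned in sign without DA replicate 1 and nothing is read from either fit. Their sum was 360 ± 152 CPM in DA and 255 ± 48.7 CPM in nDA (n = 4 each), and the ranges overlapped. The most abundant beta genes overlapped between the populations, with Pcdhb17 at 15.6 to 58.6 CPM in DA and 21.5 to 30.0 CPM in nDA, and Pcdhb9 at 4.34 to 77.9 CPM and 16.6 to 39.9 CPM. Pcdhb16 went the other way, at 1.23, 4.07, 0.0723 and 7.86 CPM in DA and 17.9, 18.7, 16.1 and 25.2 CPM in nDA. Its groups did not overlap, and its log2 fold change of -2.55 missed the threshold (edgeR adjusted p 0.168), which DESeq2 passed (adjusted p 0.0410). Over the whole family 7 members were higher and 3 lower without overlap, where 6.41% and 19.7% of all genes tested were.

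No gamma gene passed the threshold in edgeR with all 8 libraries, and 7 of 22 had a log2 fold change above 0, with a median of -0.38. The median was -2.65 with voom (1 of 22 above 0), -1.73 with the replicate block and 0.06 without DA replicate 3, so that neither its size nor its sign was stable. Pcdhgb8 passed as lower in DESeq2 (adjusted p 0.0465) and voom (0.00137), and Pcdhgb7 in voom (0.00501). Both had counts in DA replicate 1 alone of the 4 food-trained DA libraries (0.415 CPM for Pcdhgb8 and 6.75 CPM for Pcdhgb7) and in every nDA library, through which they passed the filter, so nothing is read from fits without that library. The lowest edgeR p of the cluster was that of Pcdhgb6, at 6.69 to 20.9 CPM in DA and 19.7 to 49.1 CPM in nDA, with a log2 fold change of -1.18 (edgeR adjusted p 0.127). Pcdhga7, the most abundant of the alternate gamma genes, was at 12.7 to 60.9 CPM in DA and 27.2 to 37.1 CPM in nDA. The C-type genes did not share a direction. Pcdhgc4, which protects young neurons from cell death, was at 86.3 to 245 CPM in DA and 46.1 to 133 CPM in nDA, and Pcdhgc3, which dampens Wnt signalling, was at 0 to 29.7 CPM and 6.73 to 101 CPM. The ratio of the gamma sums was 0.903, between 0.768 and 1.03 when each library was left out in turn.

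**Figure D3:**
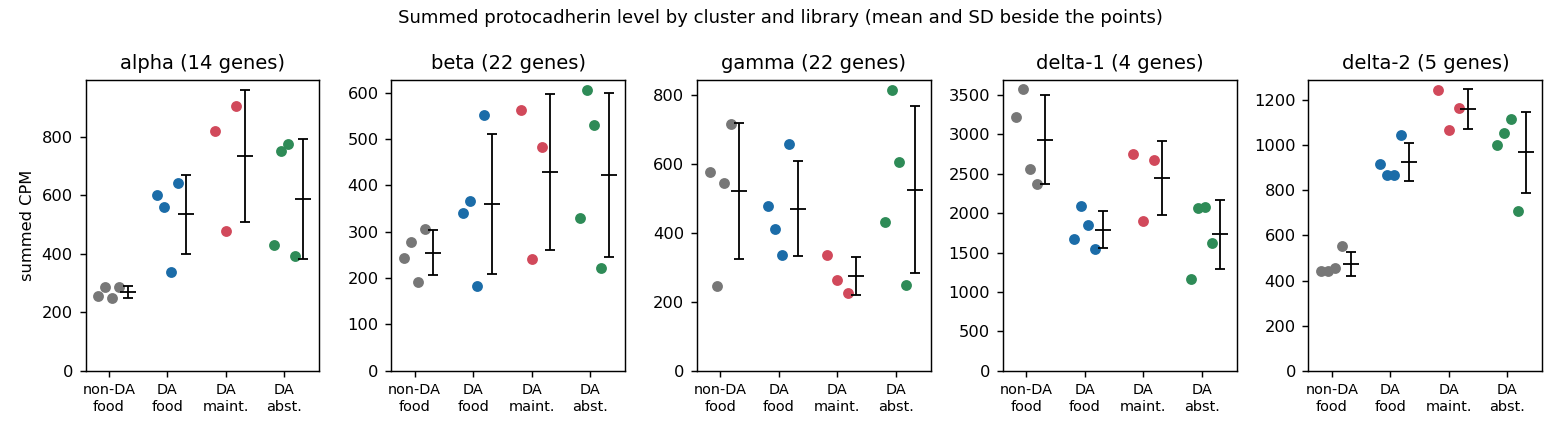
Summed CPM (y axis, from 0) of the alpha, beta, gamma, delta-1 and delta-2 genes in each library, by group (x axis), with the mean and SD beside the points. The alpha and delta-2 sums of all 4 food-trained DA libraries lie above those of all nDA libraries, and the gamma sums at maintenance lie between 226 and 334 CPM.

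Low counts were common in DA libraries and rare in nDA, for clustered genes as for genes at large. At most 3 counts were found in 18.1% of the gene and library pairs of the clusters in food-trained DA nuclei, 24.7% at maintenance, 7.33% after abstinence and 0% in nDA. Over all genes that passed a filter these shares were 22.3%, 22.0%, 13.4% and 1.89%. Within DA nuclei the gaps were uneven between clusters: after food training they made up 27.3% of gamma, 17.0% of beta and 5.36% of alpha values. The median coefficient of variation of clustered genes was 81.5% in food-trained DA libraries and 33.2% in nDA, against 61.3% and 26.4% over all genes. No delta-2 gene had a value at or under 3 counts in any library. How many nuclei entered each library is not given in the sources used here, and its part in these gaps was not tested.

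**Figure D4:**
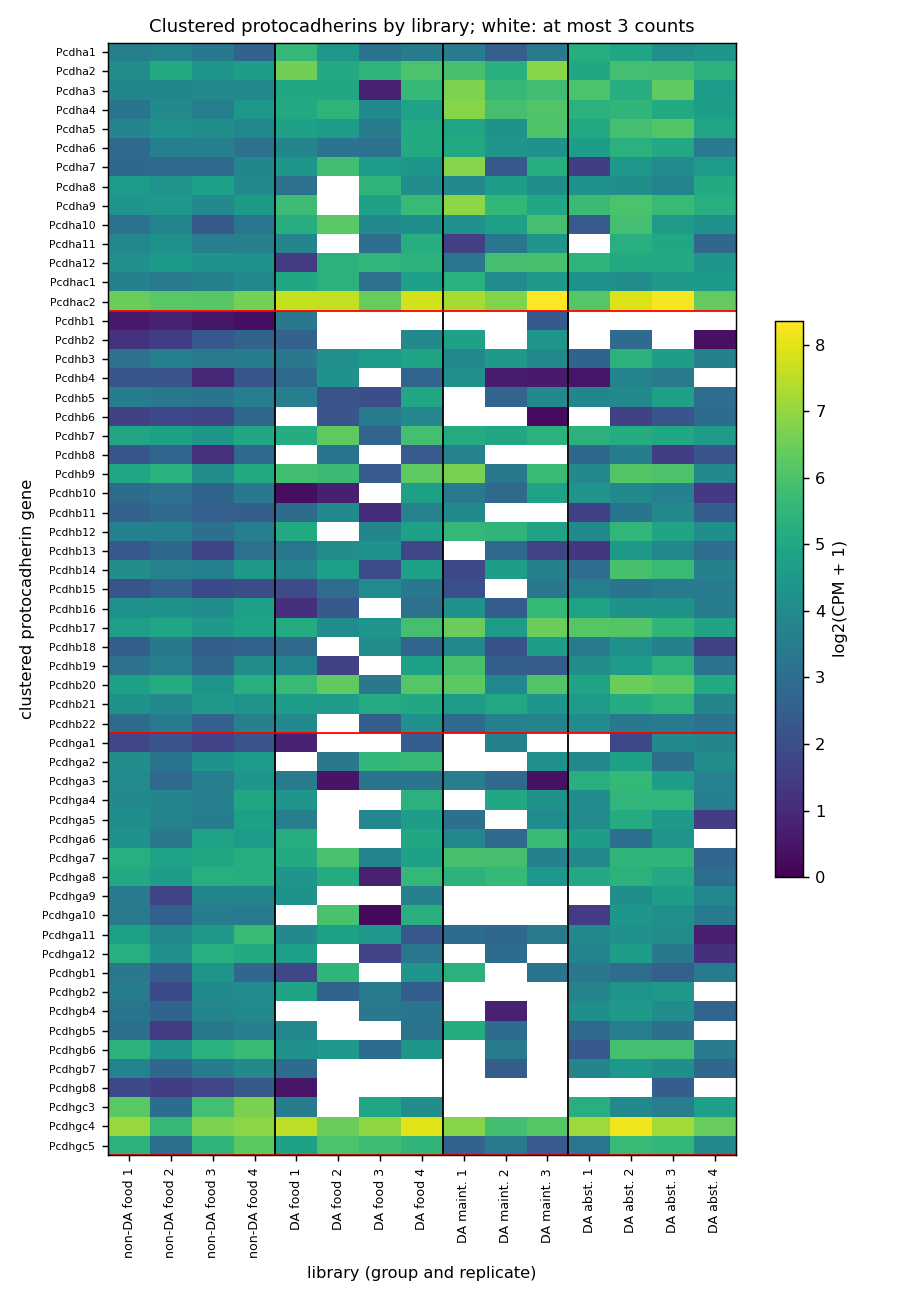
Level as log2(CPM + 1) (colour) of the 58 clustered protocadherins (y axis, in order of name within the alpha, beta and gamma clusters, which red lines separate) in the 15 libraries (x axis, groups separated by black lines), with white where a gene had at most 3 counts. White cells are absent from nDA and most frequent in the gamma genes of the maintenance libraries, where they make up 47.0% of the values.

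The comparison of maintenance with food training asked what differed in DA nuclei after cocaine self-administration. The gamma cluster summed to 274 ± 55.0 CPM at maintenance (n = 3) against 470 ± 137 CPM after food training (n = 4), with all 3 maintenance libraries (226 to 334 CPM) below all 4 food-trained ones (337 to 656 CPM), while the alpha sum was 734 ± 226 CPM against 535 ± 135 CPM. The sum of 4 GABA neuron markers, all detected in every library, was 346 to 822 CPM at maintenance, 439 to 1112 CPM after food training and 583 to 1401 CPM after abstinence, and nDA replicate 2 was lowest of its group in both sums (698 CPM of these markers). Their part in the gamma levels was not tested. None of the 67 protocadherins tested passed the threshold in edgeR's quasi-likelihood test, where 0.131% of all genes did. At an unadjusted p under 0.05 there were 4 higher and 10 lower members, where 4.88% and 6.74% of all genes were. DESeq2 called 9 members, 3 higher and 6 lower, and 4.69% of all genes.

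All 3 C-type gamma genes were among those with an unadjusted p under 0.05. Their sum was 65.5 to 121 CPM at maintenance and 149 to 305 CPM after food training. The sums of the other gamma genes overlapped between the groups. They were 139 to 175 against 104 to 289.5 CPM for Pcdhga genes, and 8.58 to 74.4 against 25.7 to 69.8 CPM for Pcdhgb genes. Pcdhgc5 stood at 26.8, 62.6, 52.9 and 43.3 CPM after food training and at 5.19, 9.68 and 4.28 CPM at maintenance. No library overlapped between the groups, and the fit gave a log2 fold change of -2.86 ± 0.64 (SE; adjusted p 0.108, edgeR). Pcdhgc3 stood at 10.4, 0, 29.7 and 16.4 CPM after food training and had no count in any of the 3 maintenance libraries. Against a floor of 3 counts per library its mean was at least 189-fold lower at maintenance (edgeR adjusted p 0.0982). Food-trained replicate 2, the library with the lowest GC slope of its group, was itself at 0, and without that library the adjusted p was 0.00872. Pcdhgc4 stood at 182, 86.3, 124 and 245 CPM against 115, 55.8 and 70.8 CPM, with overlapping groups and a log2 fold change of -0.99 (edgeR adjusted p 0.411).

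Further alternate gamma genes without a count in the 3 maintenance libraries were Pcdhga9, Pcdhga10, Pcdhgb2 and Pcdhgb8. The mean was at least 328-fold lower for Pcdhga10, 164-fold for Pcdhgb2 and 101-fold for Pcdhga9 against the same floor, and Pcdhgb8 was near the floor in both groups. Pcdhgb2, at 28.7, 5.50, 9.90 and 4.69 CPM after food training, was the one of them with counts in all 4 food-trained libraries (edgeR adjusted p 0.123). Pcdhga10 stood at 0, 61.3, 0.145 and 36.6 CPM after food training and Pcdhga9 at 18.8, 0, 0 and 11.4 CPM, so that each mean rested on a pair of libraries. Without food-trained replicate 1 the bounds fell to 89.7-fold for Pcdhgb2 and 51.0-fold for Pcdhga9, without replicate 2 to 164-fold for Pcdhga10, and without replicate 3 to 120-fold for Pcdhgc3. The gamma cluster's median log2 fold change was -0.99, with 15 of 21 genes below 0, where 50.4% of all genes were. Among the 15 were Pcdhgc3, Pcdhga9, Pcdhga10 and Pcdhgb2, which passed the filter only through food-trained and abstinence libraries. Nothing is read from the edgeR and DESeq2 fits of these genes against maintenance beyond their counts. The gamma sum at maintenance was 0.583 times that after food training, and between 0.520 and 0.672 times when each library was left out in turn.

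The GC content of gamma transcripts, 51.0% to 55.4%, was above that of alpha (46.5% to 49.8%) and beta transcripts (39.1% to 49.0%). The library of nDA nuclei with a GC slope like that of the maintenance libraries was also low in these genes: Pcdhgc5 stood at 7.54 CPM in nDA replicate 2 and at 41.5 to 74.8 CPM in the other nDA libraries, and Pcdhgc3 at 6.73 CPM against 57.6 to 101 CPM. Its gamma sum was 246 CPM, the lowest of the nDA group. Low slopes and low gamma levels did not coincide in every library. Abstinence replicate 1 had Pcdhgc5 at 8.65 CPM with a slope of -0.0019, and abstinence replicate 4 a gamma sum of 248 CPM with a slope of -0.0011. Food-trained DA replicate 2, the lowest slope of its group, was highest of that group in Pcdhgc5 (62.6 CPM) and lowest in Pcdhgc3 (0 CPM), in Pcdhgc4 (86.3 CPM) and in gamma genes above 3 counts (11 of 22). Across the 66 members with both values, the log2 fold change between maintenance and food training and the transcript GC content had a Spearman rho of -0.406, a description over genes that share these libraries. Pcdh1, outside the clusters, had a transcript GC content of 60.7% and a log2 fold change of -2.03 that did not pass (adjusted p 0.421). The part of GC content in the gamma levels cannot be told apart from maintenance. With the GC slope of each library removed, the median of the gamma genes between maintenance and food training was -0.76. With a term in the model for the 3 maintenance libraries and nDA replicate 2, the median was -0.02. The size of that term comes from nDA replicate 2 alone against 3 nDA libraries, and this library was picked for its slope, so the value is a description and nothing is read from it. Pcdhgc3 kept counts in nDA replicate 2, unlike in the maintenance libraries. No library outside this set is a maintenance library, so maintenance and the property these libraries share cannot be told apart beyond that 1 nDA library.

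**Figure D5:**
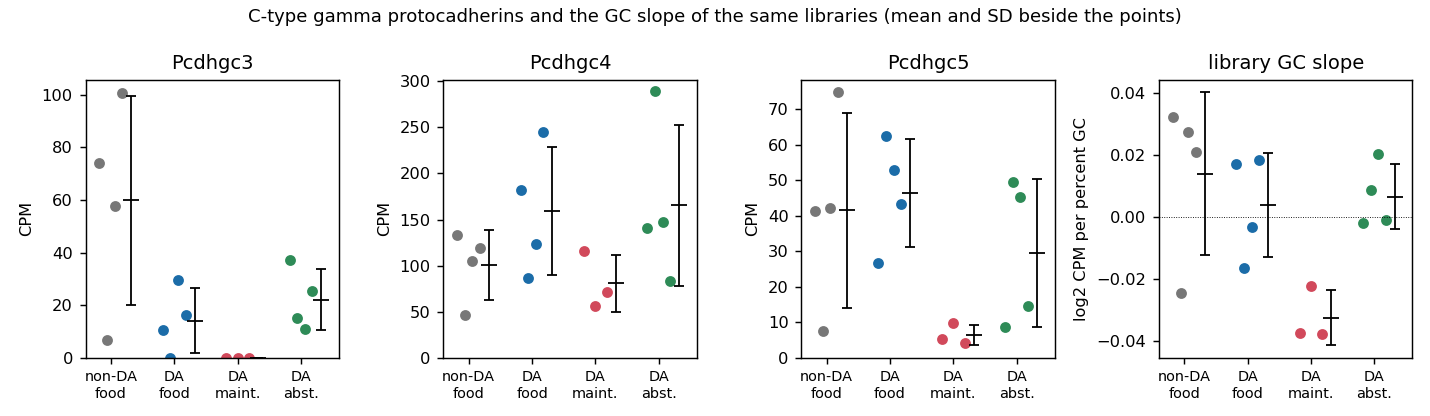
Level in CPM (y axis, from 0) of Pcdhgc3, Pcdhgc4 and Pcdhgc5 in each library by group (x axis), and in the last panel how steeply log2 CPM depends on transcript GC percent in the same libraries (slope), with the mean and SD beside the points. The maintenance libraries and nDA replicate 2 are low both in Pcdhgc5, at 4.28 to 9.68 CPM, and in the slope, and abstinence replicate 1 has Pcdhgc5 at 8.65 CPM without a low slope.

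Outside the gamma cluster, Pcdhb17 was at 85.7, 23.2 and 86.0 CPM at maintenance, overlapping its food-trained range. A further 3 genes were higher at maintenance without overlap and missed the threshold. Pcdha4 stood at 32.7, 42.6, 14.9 and 26.9 CPM after food training and at 114, 58.9 and 67.7 CPM at maintenance, with a fitted log2 fold change of 1.45 ± 0.38 (SE; adjusted p 0.181, edgeR). Pcdh19 was at 155 to 223 CPM and then 290 to 350 CPM, with a log2 fold change of 0.77 (edgeR adjusted p 0.290). Pcdh7, a delta-1 gene whose protein binds the phosphatase PP1, was at 254 to 362 CPM and then 488 to 567 CPM, with a log2 fold change of 0.65 (edgeR adjusted p 0.328). Among genes tested, 4.31% were higher and 4.14% lower without overlap.

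Pcdh8 stood at 63.3, 59.3 and 53.1 CPM at maintenance, just below the lowest food-trained library at 63.5 CPM. The fit gave a log2 fold change of -1.09 ± 0.36 (SE; adjusted p 0.319, edgeR). Its transcript, at 59.3% GC, was the richest in GC of the delta-2 group. Pcdh10 showed little difference, at 223 to 283 CPM against 178 to 252 CPM. The delta-2 sum was 1160 ± 89.2 CPM at maintenance (n = 3). Oligodendrocyte markers summed to 1170 to 1777 CPM at maintenance. Of all markers followed, only Olig1, of the oligodendrocyte precursor list, passed between stages: it was at 16.4 to 49.9 CPM after food training, 0 to 0.208 CPM at maintenance (adjusted p 0.0103, edgeR) and 27.2 to 50.8 CPM after abstinence (adjusted p 0.00955 against maintenance, edgeR). The other genes of its list did not all follow: 3 of the 7 had a log2 fold change above 0 at maintenance and 4 below. The 7 summed to 255 ± 57.1 CPM after food training (n = 4) and 271 ± 54.4 CPM at maintenance (n = 3). The part of these markers in the protocadherin differences was not tested.

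After abstinence the sums of DA nuclei were 1.10 (alpha), 1.17 (beta), 1.12 (gamma), 0.968 (delta-1) and 1.05 (delta-2) times their food-trained means, and the ranges of each overlapped. When each library was left out in turn, the ratios ran from 0.979 to 1.22 for alpha, 1 to 1.43 for beta, 0.912 to 1.31 for gamma, 0.903 to 1.07 for delta-1 and 0.995 to 1.14 for delta-2. None of 67 passed the threshold against food training, and 0% of all genes did, by edgeR's quasi-likelihood test. Of all genes tested, 819 or 4.30% had an unadjusted p under 0.05, and DESeq2 called 125 genes (0.656%) and 0 protocadherins. The cluster sums were 588 ± 205 CPM for alpha, 422 ± 178 CPM for beta, 525 ± 242 CPM for gamma and 969 ± 180 CPM for delta-2 (n = 4). At an unadjusted p under 0.05 there were 3 higher and 0 lower members, where 3.23% and 1.07% of all genes were.

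These were Pcdhb16, Pcdha5 and Pcdhga3. Pcdhb16, which was low in food-trained DA nuclei, stood at 28.1, 18.7, 18.5 and 10.5 CPM after abstinence, above all 4 food-trained libraries and near the nDA level. At maintenance it was at 18.8, 4.43 and 47.5 CPM, with overlap and a fitted log2 fold change of 2.83 against food training (adjusted p 0.386, edgeR). For this gene the fit gave a log2 fold change of 2.51 ± 1.02 (SE; adjusted p 1.00, edgeR). Pcdhga3 stood at 36.8, 46.1, 24.3 and 12.2 CPM against 9.66, 0.370, 8.42 and 8.29 CPM, without overlap, where 2.40% of all genes were higher and 0.944% lower without overlap. Pcdha5 stood at 32.6, 58.9, 68.3 and 30.1 CPM against 26.4, 23.7, 10.7 and 32.5 CPM, and its groups overlapped. The next lowest p among higher genes were those of Pcdhb17 (28.4 to 71.0 CPM after abstinence) and Pcdha6 (10.1 to 39.8 CPM, against 7.92 to 33.4 CPM). Among lower genes the lowest were those of Pcdhgc5 (8.65 to 49.6 CPM after abstinence) and Pcdha7 (1.90 to 23.3 CPM), followed by Pcdha2 (30.3 to 56.8 CPM) and Pcdhac1 (16.3 to 22.8 CPM). All of these overlapped with food training.

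Abstinence was also set against maintenance, which shares its maintenance libraries with the comparison above. None of 67 members passed the threshold, where 0.178% of all genes did, by edgeR's quasi-likelihood test, and DESeq2 called 5, all gamma genes, and 3.84% of all genes. At an unadjusted p under 0.05 there were 10 higher and 3 lower members, where 7.33% and 2.59% of all genes were. The 7 gamma genes among the 10 included all C-type genes. Pcdhgc3 stood at 37.0, 15.2, 10.8 and 25.6 CPM after abstinence and was at 0 in all maintenance libraries, at least 297-fold higher against the floor (edgeR adjusted p 0.0866). As above, nothing is read from that fit or from the DESeq2 calls of Pcdhgc3, Pcdhga9, Pcdhga10 and Pcdhgb2.

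Pcdhgc5 stood at 8.65, 49.6, 45.4 and 14.6 CPM after abstinence, with its lowest library inside the maintenance range, and the fit gave a log2 fold change of 2.19 ± 0.62 (SE; adjusted p 0.262, edgeR). The gamma sum was 1.91 times that at maintenance, between 1.56 and 2.25 times when each library was left out in turn. Pcdha4, Pcdh19 and Pcdh7 were lower than at maintenance without overlap and missed the threshold. In all, 8 members were higher and 3 lower without overlap, where 7.68% and 4.52% of all genes were.

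Genes that act on the protocadherin clusters were followed in the same fits, where 12.8% of all genes passed between populations, 3.63% higher and 9.17% lower in DA. Of 17 tested genes for H3K9 methylation and the SETDB1 complex, Setdb1 was the only call between populations. It stood at 11.3 ± 2.71 CPM in food-trained DA and 51.7 ± 7.63 CPM in nDA (n = 4 each), with a fitted log2 fold change of -2.19 ± 0.27 (SE; adjusted p 0.00439, edgeR). In DA nuclei it was at 16.9 ± 6.09 CPM at maintenance (n = 3) and 41.3 ± 14.5 CPM after abstinence (n = 4), and none of the 17 passed edgeR's threshold between stages. For abstinence against food training the fit gave Setdb1 a log2 fold change of 1.87 ± 0.41 (SE; adjusted p 1.00, edgeR), and DESeq2 gave an adjusted p of 0.000949. Beside it, the alpha sum after abstinence was 1.10 times and the gamma sum 1.12 times the food-trained mean.

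Of 20 genes for CTCF, cohesin and DNA methylation, 2 passed between populations, both lower in DA: Dnmt3a, a DNA methyltransferase, by -0.80 on the log2 scale (edgeR adjusted p 0.0207), and Tet2, which oxidises methylated cytosine, by -0.80 (edgeR adjusted p 0.0148). Ctcf itself stood at 15.1 ± 7.11 CPM in DA and 33.0 ± 5.46 CPM in nDA (n = 4 each; edgeR adjusted p 0.0907). Of 20 signalling and processing partners, Ret, the GDNF co-receptor and itself a dopamine neuron marker, was higher (log2 fold change 4.30, edgeR adjusted p 0.000642) and Ptk2, the focal adhesion kinase that gamma protocadherins inhibit, was lower (-1.25, edgeR adjusted p 0.0311). Of 29 other cadherins tested, 6 were higher and 2 lower, beside the 3.63% and 9.17% of all genes. The 6 were Cdh8 (1.48), Cdh11 (1.73), Clstn2 (1.41), Cdh7 (1.14), Fat4 (1.42) and Cdh13 (1.28 on the log2 scale). Cdh19, a cadherin of myelinating glia, and Cdh1 were lower. Of 17 alternatives, Ptk2 missed the threshold in 7, Dnmt3a and Tet2 in 3 each and Cdh7 and Cdh13 in 1 each, as did Cdh1 in 1 of 16. None of these lists had a call between stages in edgeR with all 11 DA libraries.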

How the data were processed

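Nuclear RNA of 15 libraries was analysed from a gene table of raw counts deposited by the authors. Trim Galore 0.6.7, cutadapt 1.18, STAR 2.7.10a, StringTie 2.1.5, DESeq2 1.38.3 and the builds mm10 and GRCm38 are named in the submitters' processing notes; the annotation and any use of strand are not given in the sources used here. A second deposited table of 10 columns held the same raw counts (0 cells differed) and was read for this comparison only. No pair of libraries held identical values.

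Tests used edgeR 4.0.16 in R 4.3.3 (TMM, filterByExpr, quasi-likelihood F-test, two-sided, Benjamini-Hochberg adjustment over all genes tested, threshold 0.05). The populations were fitted on 8 libraries and the stages on all 11 DA libraries. DESeq2 1.42.0 and voom in limma 3.58.1 were alternatives, with other scalings, filters, each replicate left out, a replicate block, a GC offset and a term for the libraries with a low GC slope. The scripts were tested on simulated data. Lower bounds used a floor of 3 counts per library. Libraries were amplified and carry no molecular identifiers, so a count floor covers counting error only. Transcript GC and length are those of the longest GENCODE M21 isoform, and GC slopes from 8173 genes with a mean log2 CPM over 4. Coordinates and promoters are RefSeq's.

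Deviations of same-numbered DA and nDA libraries from their group means had correlations of 0.116, 0.127, 0.262 and 0.243 over 8532 genes. Those of same-numbered libraries of different stages were -0.351 to 0.110. Differently numbered libraries were not correlated and the labels state no pairing, so whether the numbers pair DA and nDA libraries is not known. The main fit left pairing out, and the replicate block is an alternative to it.

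Named were members past the threshold, the 5 with the lowest p per direction and comparison, the 3 most abundant of each cluster, called genes of the other lists, the 2 of each list with the lowest p, and Setdb1; others were chosen after their values were seen. The members and lists were chosen with earlier results of these data known.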

Additional observations from a re-analysis of the deposited data

Results flagged for a closer look

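The highest or lowest library stood apart from the others of its group, by Dixon's test, in 11 of 114 groups of values. The test's chance rate of about 1 in 20 holds for normal values and is not set against that count. A group with counts in 1 library alone is always flagged. Such were Pcdhgb8 after food training and after abstinence, and Pcdh12 in nDA. Groups at 0 throughout, such as Pcdh12 in food-trained DA nuclei, are among the 114 and cannot be flagged. In food-trained DA nuclei, Pcdh7 was low in replicate 4 (254 CPM, the others 351 to 362 CPM), Pcdha7 was high in replicate 2 (55.7 CPM, the others 20.6 to 23.0 CPM), and Pcdhga3 was low in replicate 2 (0.370 CPM, the others 8.29 to 9.66 CPM). Pcdhgb8 had 0.415 CPM in replicate 1 and no counts in the other 3.

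After abstinence, Pcdh19 was low in replicate 4 (145 CPM, the others 232 to 246 CPM), and among abstinence libraries Pcdhgb8 had counts in replicate 3 alone (4.69 CPM). In nDA nuclei, Pcdh20 (167 CPM, the others 38.4 to 45.4 CPM), Pcdha7 (13.2 CPM, the others 5.93 to 6.31 CPM) and the delta-2 sum (554 CPM, the others 442 to 454 CPM) were high in replicate 4. Pcdhga10 was low in nDA replicate 2 (5.08 CPM, the others 10.1 to 10.6 CPM), the library with the low GC slope. Within the nDA group, Pcdh12 had counts in replicate 1 alone (0.267 CPM).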

How the results depend on the processing

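Between DA and nDA nuclei, 6 protocadherins passed the threshold, and DESeq2 called 12, voom 11 and the fit with a replicate block 4. Leaving out 1 library gave 2 to 14: 14 without DA replicate 3 (3740 of all genes passed), 2 without nDA replicate 1 (1900 genes) and 3 without nDA replicate 3 (2068 genes), beside 2534 genes with all libraries. Pcdh10 and Pcdh19 passed under all 17 alternatives, Pcdh8 and Pcdh9 under 15, Pcdha7 under 11 and Pcdhac2 under 7, and no sign of these 6 changed. The ratio of delta-2 sums was 2.22 with upper quartile factors set over all 15 libraries. At maintenance against food training, 0 members passed; DESeq2 called 9, a minimum of 10 counts in every library gave 1 (Pcdhgc5), and leaving out 1 library gave 0 to 1 (Pcdhgc3 without DA food-trained replicate 2, Pcdhgb6 without maintenance replicate 2). At abstinence against maintenance, DESeq2 called 5 and leaving out 1 library gave 0 to 1 (Pcdhgb6 without maintenance replicate 2, Pcdhgb2 without abstinence replicate 4). A replicate block left both counts at 0. The term for the libraries with a low GC slope took Pcdhgc5 at maintenance against food training from -2.86 to -0.07 and turned the sign of Pcdh8 there (0.28), and of Pcdh8 (-0.24) and Pcdhgc5 (-0.60) at abstinence against maintenance, and left Pcdh7 at 0.14 and -0.03 in the same comparisons. That term rests on 1 nDA library, assumed to vary like the others, and nothing is read from these values. Over all genes, 2534 passed between populations, against 3883 with DESeq2, 4266 with voom, 1643 with a minimum of 10 counts and 775 with the replicate block. DESeq2 also called 894 genes where edgeR called 25 at maintenance against food training, 125 against 0 at abstinence against food training, and 732 against 34 at abstinence against maintenance. With libraries kept whole, the other settings gave 0 to 109 genes at maintenance against food training and 1 to 69 at abstinence against maintenance, the highest with a minimum of 10 counts. Why DESeq2 calls more was not tested. The mean of Pcdhgb8 was near the floor of 3 counts per library in food-trained and maintenance DA nuclei, where a difference was not detectable at this depth.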
